A study of Homo sapiens with 2 samples.

Results

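Receptors, ion channels and transporters are the proteins through which a cell reads signals and moves ions and nutrients across its membranes. The genes described here were chosen from the authors' deposited table of genes that differ between 2 cultures. A row was taken if its symbol starts with SLC or KCN, or if its protein description contains receptor, channel or transporter. Rows described as DNA-binding factors, and 10 symbols that the rule names, were left out. This gave 39 genes among the 425 rows of the table, of which 368 carry a symbol.

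Both cultures were HES2, an established human embryonic stem cell line, and total RNA of each was sequenced. The control expressed PB, which the labels do not spell out, and the other culture expressed PB-Tfcp2l1ΔCP2. By its name this construct carries Tfcp2l1 without a part called CP2. The full-length protein is a DNA-binding factor related to grainyhead, and whether the shortened one binds DNA was not tested. The species of the insert is not given. The shared medium contained 10% KSR and both Activin A and FGF2, each at 10 ng/ml, and the cells were collected after 2 passages. Each group had 1 library, so no difference below has a replicate check, no test across conditions was possible, and every comparison is between these libraries. Whether a culture was 1 clone or a pool is not stated.

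The table lists called genes only. All its rows differ at least 2-fold between the libraries, so that a fold above 2 is fixed by the selection and only its direction and size beyond that are free. It holds 2.33% of the 18250 genes that its FDR values imply were tested, and 3482 genes of equal or better rank were not analysed here. No row was found for TFCP2L1, for the 8 embryonic stem cell markers POU5F1, NANOG, SOX2, LIN28A, DNMT3B, TDGF1, PODXL and SALL4, or for 5 neuronal markers. Neither the construct nor the cell type could thus be checked here. Of 6 fibroblast markers COL1A1 alone was listed, at an expression value of 41.6 in the PB library against 18.0, and its part in the results was not tested. RNA was taken from whole cultures, so fewer cells expressing a gene and less RNA per cell cannot be told apart.

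In embryonic stem cells, as in other cells, potassium channels set the membrane potential, calcium channels admit or release calcium as a signal, solute carriers of the SLC families move amino acids, organic acids and ions, and receptors pass on hormones, cytokines and lipoproteins. Many channel genes are best known from excitable cells. They are transcribed at low levels elsewhere, so that their read counts limit what can be said.

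Of the 39 genes, 18 had more and 21 had less signal in the PB-Tfcp2l1ΔCP2 library than in the control. Among all 425 rows 47.3% were higher and 52.7% lower, a split close to that of these genes. The potassium channel genes held the 2 largest increases that rested on reads in both libraries, in KCNK9 and KCNH5. Among genes that reached a value of 1 in either library, the carrier gene SLC16A9 had the largest decrease. Expression values here are the authors' deposited values, whose unit is not named. They scale roughly with reads per gene length, so levels of different genes can be set side by side. Folds are ratios of reads recovered from the authors' deposited p-values, divided by the ratio of library totals of 1.02 and given with exact 95% counting intervals. Those intervals hold no spread between cultures, and reads that are copies of 1 molecule would make them too narrow. For some genes the fold by reads departs from the ratio of values, in either direction. KCNH7 was 2.41-fold lower by reads and 2.10 by values, and SCARF1 2.06 by reads and 2.45 by values. The smallest deposited value, 0.01, stands in the 3 genes of the 39 for which 0 reads were recovered in a library.

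**Figure D1:**
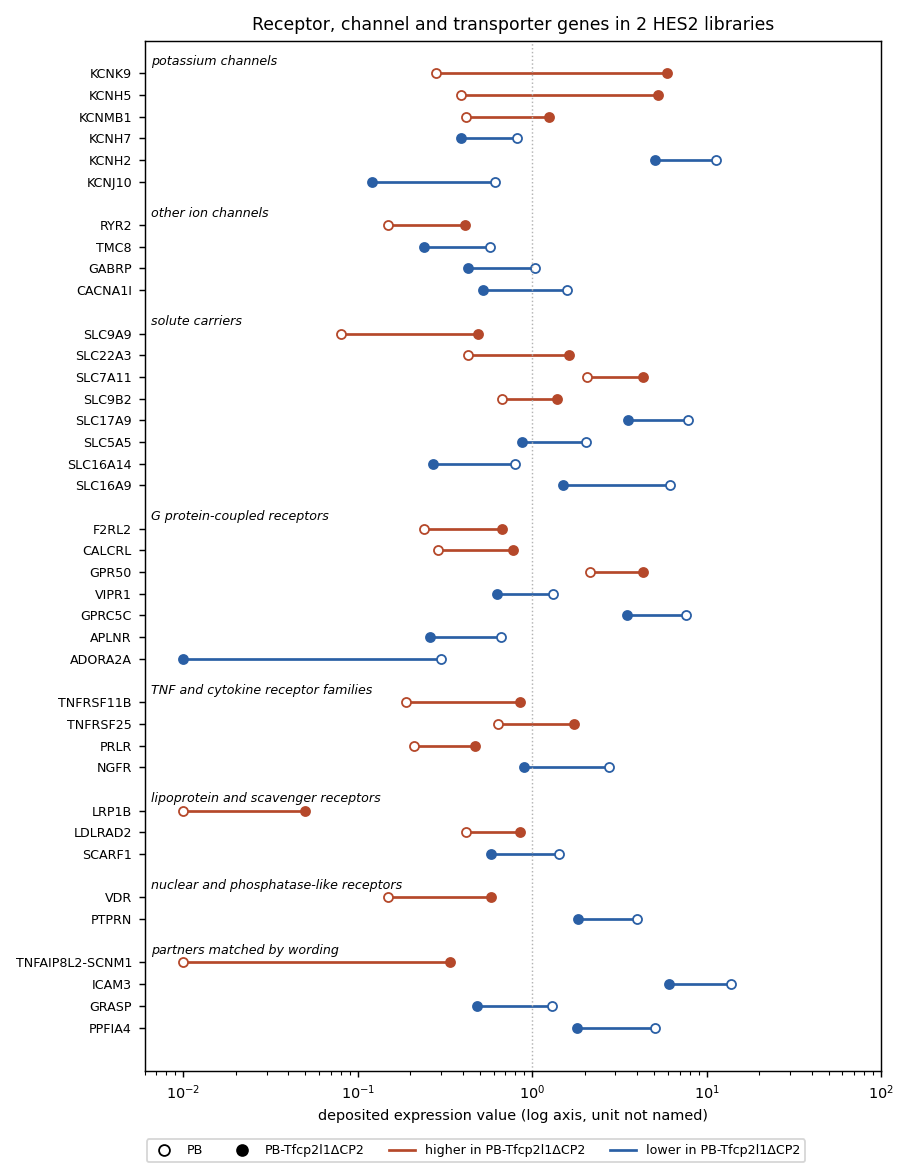
Deposited expression value (log axis) of 38 of the 39 genes in the PB library (open circles) and the PB-Tfcp2l1ΔCP2 library (filled circles), 1 library each, grouped by role, with a dotted line at a value of 1. KCNK9 and KCNH5 cross from below 1 to above 5, while KCNH2 and ICAM3 stay above 5 in both libraries.

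Potassium channels formed the group with the widest span. KCNK9 (Gene ID 51305) encodes a tandem-pore leak channel that holds the resting potential. It had a value of 0.28 in the PB library, on 15 reads, against 5.91 on 323 reads in the PB-Tfcp2l1ΔCP2 library. This was 21.1-fold higher (95% counting interval 12.6 to 38.1). KCNH5 (Gene ID 27133), an ether-a-go-go type voltage-gated channel gene, had 0.39 on 35 reads against 5.28 on 497 reads, or 13.9-fold higher (9.85 to 20.2). Both were under a value of 1 in the control and among the most abundant of the 39 genes in the PB-Tfcp2l1ΔCP2 library. Their promoters were looked up in RefSeq; a window was found for KCNH5, which is shown because it had the largest increase among the genes with one and with reads in both libraries. It spans the bases from 250 before to 50 after the annotated start, at chr14:63045409-63045708 on the minus strand of GRCh38.p14, and all letters are lower case because it holds none of the motifs searched below.

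KCNH5: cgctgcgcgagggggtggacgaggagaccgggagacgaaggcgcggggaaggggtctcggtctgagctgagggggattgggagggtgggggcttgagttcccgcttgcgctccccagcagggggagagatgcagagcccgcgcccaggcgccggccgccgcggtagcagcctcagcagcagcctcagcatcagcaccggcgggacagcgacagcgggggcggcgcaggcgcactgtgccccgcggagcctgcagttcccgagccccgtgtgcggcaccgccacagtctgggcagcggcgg

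The 2 other listed genes of the KCNH family went the opposite way. KCNH2 (Gene ID 3757) encodes the pore subunit of the channel that repolarises the heart's action potential. In the control it was the most abundant potassium channel gene listed, with 11.3 on 1003 control reads against 5.06 on 457 reads (2.24-fold lower, 2.01 to 2.51). KCNH7, its close relative of the ERG subgroup, had 0.82 on 66 reads against 0.39 on 28 reads (2.41-fold lower, 1.53 to 3.90). The span of KCNH7 overlaps that of the coding gene GCA. Only whole gene spans were compared, not exons, and the counting is not stated to use strand. Whether the pair shares reads is thus not known. Of 8 KCNH genes annotated in RefSeq, 3 were thus listed, 1 higher and 2 lower. Of all genes tested, 2.33% were listed. Here and below, the RefSeq totals may include genes that were not tested or not expressed. A family gene without a row is therefore not shown to be unchanged.

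Among the remaining potassium channel genes, KCNMB1 encodes an accessory subunit of the large-conductance calcium-activated channel of smooth muscle. It had 0.42 on 15 reads against 1.24 on 45 reads (2.93-fold higher, 1.60 to 5.66). KCNMB1 lies within the span of KCNIP1, a coding gene of the same class, and whether they share reads is likewise not known. KCNJ10 encodes an inward rectifier that takes up potassium in glia and kidney. It had 0.61 on 76 control reads against 0.12 on 15 reads (5.18-fold lower, 2.95 to 9.71). KCNK9 was the only 1 of 15 tandem-pore channel genes with a row, KCNJ10 the only 1 of 16 inward rectifier genes, and KCNMB1 the only 1 of 17 genes for accessory subunits. No gene of the other voltage-gated families or the calcium-activated pore subunits had one. The KCNJ10 window is shown as that of the gene with the largest fold decrease among those with reads in both libraries. It lies at chr1:160070111-160070410 on the minus strand of GRCh38.p14.

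KCNJ10: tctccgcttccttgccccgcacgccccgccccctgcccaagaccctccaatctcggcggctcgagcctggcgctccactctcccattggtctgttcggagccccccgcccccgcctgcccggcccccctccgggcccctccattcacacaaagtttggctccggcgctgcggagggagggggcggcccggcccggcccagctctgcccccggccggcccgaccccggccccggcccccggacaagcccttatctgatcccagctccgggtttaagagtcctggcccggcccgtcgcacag

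Summed over the 6 listed potassium channel genes, the value was 13.8 in the PB library and 18.0 in the PB-Tfcp2l1ΔCP2 library. Each of the 6 genes differs at least 2-fold by selection, and they went both ways, so some shift in the makeup of the sum was fixed in advance. KCNH2 held 81.8% of the sum in the control and 28.1% in the other library. KCNK9 and KCNH5 together held 4.85% of the control sum and 62.2% of the other, in which KCNK9, KCNH5 and KCNH2 were within 1.2-fold of each other. These shares cover listed genes only, since potassium channel genes without a row were not analysed here.

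**Figure D2:**
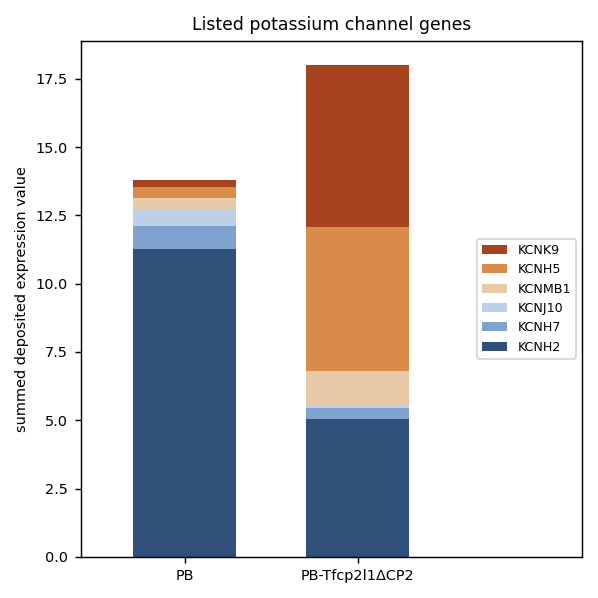
Deposited expression values of the 6 listed potassium channel genes, stacked from 0, in the PB and the PB-Tfcp2l1ΔCP2 library (1 library each, no error bars). KCNH2 makes up most of the PB bar (81.8%), whereas KCNK9, KCNH5 and KCNH2 take similar parts of the other bar (32.8%, 29.3% and 28.1%).

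Of the 4 other ion channel genes, 1 was higher and 3 were lower. RYR2 encodes the calcium release channel of the heart's sarcoplasmic reticulum, and was at 0.15 on 56 reads against 0.41 on 161 reads (2.81-fold higher, 2.06 to 3.88). Its length of 16365 bases gave it many reads for so low a value. CACNA1I, the pore subunit gene of a T-type calcium channel, was at 1.58 on 258 reads against 0.52 on 88 reads (3.0-fold lower, 2.35 to 3.86). GABRP encodes the pi subunit of GABA-A receptors, which are chloride channels, and was at 1.04 against 0.43 (2.35-fold lower, 1.55 to 3.62). TMC8, a transmembrane channel-like gene, was at 0.57 against 0.24 (2.41-fold lower, 1.49 to 4.02), with a span that overlaps TMC6. Calcium channel genes thus stood on both sides, the intracellular release channel higher and the plasma membrane T-type channel lower. CACNA1I was the only 1 of 26 genes of voltage-gated calcium channel subunits to have a row, and GABRP the only 1 of 23 in the GABA-A and glycine receptor families. None of the 14 voltage-gated sodium channel, 27 TRP channel or 19 ionotropic glutamate receptor genes had a row.

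The 8 solute carrier genes divided evenly, with 4 higher and 4 lower. SLC22A3, which encodes a low-affinity carrier of organic cations and monoamines, was at 0.43 on 32 reads against 1.63 on 125 reads (3.82-fold higher, 2.57 to 5.82). SLC9A9, an endosomal sodium/proton exchanger gene, was at 0.08 on 7 reads against 0.49 on 42 reads (5.87-fold higher, 2.61 to 15.5). Its relative SLC9B2 was at 0.67 against 1.38 (2.04-fold higher, 1.43 to 2.95), with a span that overlaps the paralog SLC9B1. SLC7A11 imports cystine in exchange for glutamate and so feeds glutathione synthesis. It was at 2.07 on 471 reads against 4.34 on 1008 reads, the most reads of any increase among the 39 genes. Both sodium/proton exchangers were higher, though 7 and 47 control reads leave their folds wide.

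The 4 carrier genes that were lower included both members of the monocarboxylate family kept here. SLC16A9, linked to carnitine transport, was at 6.15 on 569 reads against 1.5 on 143 reads (4.07-fold lower, 3.38 to 4.92). SLC16A14, whose substrate is little known, was at 0.8 on 82 reads against 0.27 on 28 reads (3.0-fold lower, 1.93 to 4.78). With the lactate carrier SLC16A3, which was left out of the 39, 3 of 14 SLC16 genes were listed and all 3 were lower. SLC17A9, which loads vesicles with ATP, was at 7.82 on 646 reads against 3.54 on 278 reads (2.38-fold lower, 2.06 to 2.75). SLC5A5, the sodium/iodide symporter of the thyroid, was at 2.03 on 163 reads against 0.87 on 73 reads (2.28-fold lower, 1.72 to 3.05). The sum over all 8 carriers was 20.1 against 14.0, with SLC17A9 and SLC16A9 holding the highest control values and SLC7A11 the highest value in the PB-Tfcp2l1ΔCP2 library.

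The SLC16A9 window is shown because it held ACGTG, the core of the hypoxia response element, and hypoxia-responsive genes are known to include its relative SLC16A3. These letters are common, being in 21.4% of all windows and in 5 of the 34 windows of the genes described here (14.7%). Whether oxygen had a part in the lower value of SLC16A9 was not tested. The capitals mark the match, a palindrome that contains ACGTG on both strands, with its first base at position -47 from the start. The window is at chr10:59710030-59710329 on the minus strand of GRCh38.p14 and is 1 of 2 annotated for the gene.

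SLC16A9: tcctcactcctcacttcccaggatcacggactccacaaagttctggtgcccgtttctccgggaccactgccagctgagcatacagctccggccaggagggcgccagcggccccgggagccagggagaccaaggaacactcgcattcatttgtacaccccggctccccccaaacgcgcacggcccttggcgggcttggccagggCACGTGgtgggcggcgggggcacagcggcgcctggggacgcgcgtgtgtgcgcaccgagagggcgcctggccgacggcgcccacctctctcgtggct

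G protein-coupled receptor genes also went both ways, 3 higher and 4 lower. GPR50, a melatonin-related receptor with no known ligand, was at 2.13 on 98 reads against 4.29 on 202 reads (2.02-fold higher, 1.58 to 2.59). CALCRL, the receptor of CGRP and adrenomedullin, was at 0.29 on 42 reads against 0.78 on 115 reads (2.68-fold higher, 1.86 to 3.91). F2RL2, a protease-activated receptor cleaved by thrombin, was at 0.24 on 18 reads against 0.67 on 55 reads (2.99-fold higher, 1.73 to 5.41). F2RL2 lies within the span of IQGAP2. GPR50 was the only 1 of these 3 to reach a value of 1.

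The most abundant G protein-coupled receptor gene listed in the control was GPRC5C, an orphan of the retinoic acid-inducible group. It was at 7.6 on 385 reads against 3.5 on 183 reads (2.15-fold lower, 1.80 to 2.58). VIPR1, the receptor of vasoactive intestinal peptide, was at 1.31 against 0.63 (2.02-fold lower, 1.38 to 3.0). APLNR binds apelin and the embryonic peptide ELABELA. It was at 0.66 on 60 reads against 0.26 on 24 reads (2.56-fold lower, 1.57 to 4.29). ADORA2A, a receptor of adenosine, had 19 control reads against 0. Set against 3 counts, the limit that 0 reads allow in a library, this was at least 6.48-fold lower, and the exact interval starts at 4.77. The span of ADORA2A lies within that of the noncoding read-through SPECC1L-ADORA2A, which may share its reads.

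In the TNF receptor superfamily 3 of 29 genes were listed. TNFRSF11B encodes osteoprotegerin, a secreted decoy receptor, and was at 0.19 on 10 reads against 0.85 on 47 reads (4.6-fold higher, 2.29 to 10.2). TNFRSF25, a death-domain receptor gene whose span overlaps ESPN, was at 0.64 against 1.73. No pair of reads fitted its p-value, so this gene alone has a ratio of values (2.70) and no interval. NGFR, the low-affinity neurotrophin receptor, was at 2.74 on 217 reads against 0.9 on 73 reads (3.04-fold lower, 2.32 to 4.02). Of the 3 listed genes 2 were thus higher and 1 was lower.

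Of 62 interleukin, interferon and haematopoietic cytokine receptor genes, 3 had rows, 1 higher and 2 lower. IL6R, the interleukin-6 receptor gene that the rule leaves out, was at 1.33 on 171 reads against 0.64 on 87 reads (2.01-fold lower, 1.54 to 2.63). PRLR, the prolactin receptor gene, was at 0.21 on 58 reads against 0.47 on 126 reads (2.12-fold higher, 1.54 to 2.95). The PRLR window at chr5:35230438-35230737, minus strand of GRCh38.p14 and 1 of 2 of the gene, is shown because it alone among the windows matched to the 39 genes held a paired CP2-type site, CCAG followed by any 6 bases and CCAG again. The capitals mark it, as the complement on this strand, with its first base at position -125. Such letters were in 4.04% of all windows. Whether a construct without CP2 binds such a site was not tested.

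PRLR: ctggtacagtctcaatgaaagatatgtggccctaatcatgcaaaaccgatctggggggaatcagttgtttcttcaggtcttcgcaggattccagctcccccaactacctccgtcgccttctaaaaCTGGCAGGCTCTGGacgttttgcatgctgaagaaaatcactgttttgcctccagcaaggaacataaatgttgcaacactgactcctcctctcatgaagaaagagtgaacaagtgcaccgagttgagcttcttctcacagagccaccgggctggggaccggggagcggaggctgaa

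The group of lipoprotein and scavenger receptors, sorted by hand, held 3 genes. LRP1B, a giant relative of the LDL receptor, had 0 control reads against 18. Taking the same limit of 3 counts, it was at least 5.87-fold higher, with an interval from 4.30, at a value of only 0.05. LDLRAD2, which carries an LDL receptor class A domain and overlaps HSPG2, was at 0.42 against 0.85 (2.03-fold higher, 1.37 to 3.06). SCARF1, a scavenger receptor gene for modified lipoproteins, was at 1.42 on 121 reads against 0.58 on 60 reads. By reads SCARF1 was 2.06-fold lower (1.5 to 2.86), less than the 2.45 of its values. None of the 3 had a value above 1.42 in either library.

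VDR, the nuclear receptor of vitamin D, was the only 1 of 45 genes matched by the nuclear receptor symbols searched to have a row. Those symbols do not cover the retinoic acid receptor gene RARG, which the rule leaves out and which was at 13.7 against 5.33. VDR was at 0.15 on 16 reads against 0.58 on 65 reads (3.97-fold higher, 2.27 to 7.35). PTPRN encodes a phosphatase-like protein of neuroendocrine secretory granules that lacks enzyme activity. It was at 4.01 on 344 reads against 1.83 on 159 reads (2.21-fold lower, 1.83 to 2.69), and was the only 1 of 20 receptor-type phosphatase genes listed.

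The wording of the rule also caught 4 genes that were sorted by hand as no receptor, channel or carrier. ICAM3, an adhesion molecule described as a counter-receptor, was at 13.7 on 630 reads against 6.06 on 287 reads (2.25-fold lower, 1.95 to 2.59). PPFIA4, a liprin scaffold gene, was at 5.03 on 1227 reads against 1.8 on 408 reads (3.08-fold lower, 2.75 to 3.45). GRASP, a scaffold of glutamate receptor trafficking called TAMALIN in RefSeq, was at 1.3 against 0.48 (2.82-fold lower, 1.69 to 4.90). TNFAIP8L2-SCNM1 is a read-through model that shares exons with its parent genes, so its 0 against 15 reads are uncertain. Without these 4 genes, a choice made after their values were seen, 17 were higher and 18 lower.

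**Figure D3:**
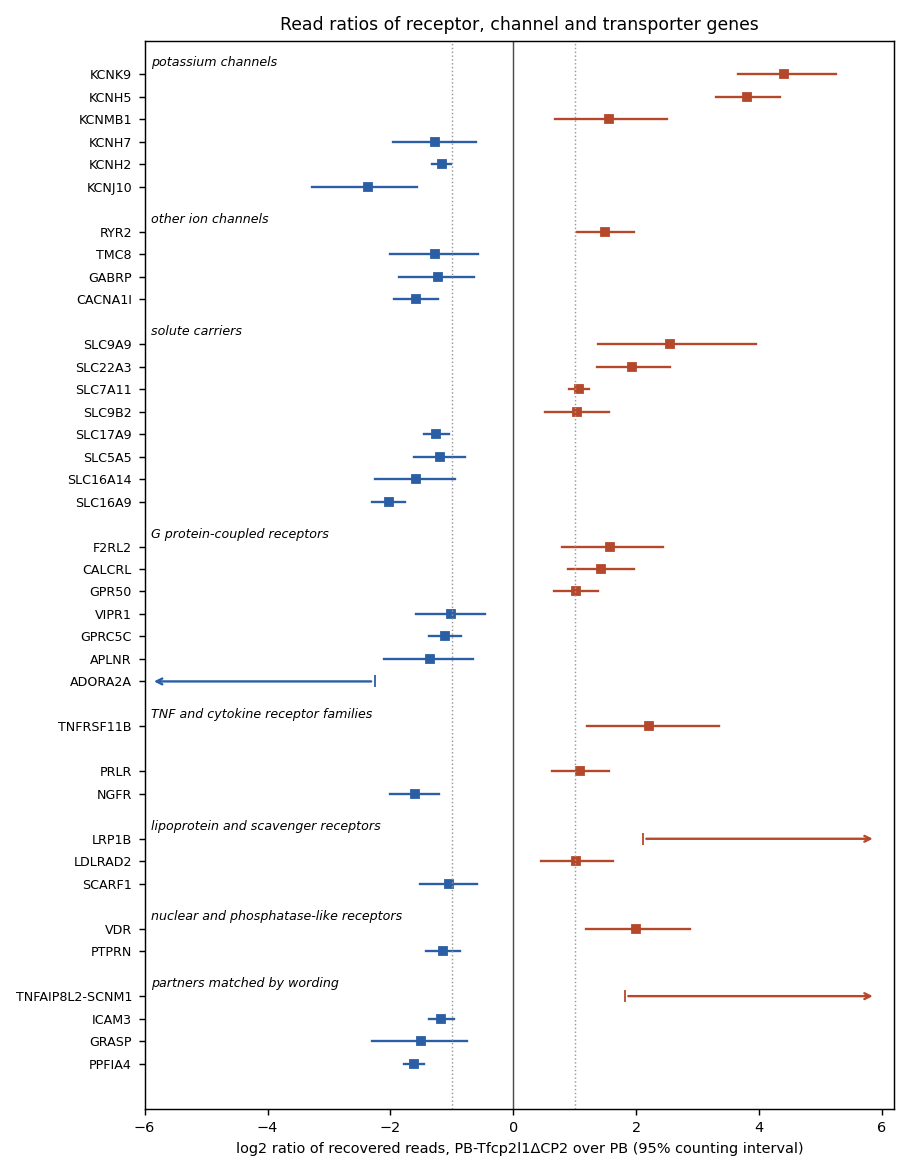
Log2 ratio of recovered reads (PB-Tfcp2l1ΔCP2 over PB, corrected for the ratio of library totals) with 95% counting intervals for 37 of the genes with recovered reads, grouped by role; arrows run from the interval bound of genes with 0 reads in 1 library, and dotted lines mark 2-fold. KCNK9 and KCNH5 stand apart on the right, and KCNJ10 and SLC16A9 have the largest decreases with reads in both libraries.

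Reads were recovered for 38 of the 39 genes. The interval lay wholly above 2-fold higher for 9 of the 38, against 25.8% of all rows with recovered reads, and wholly above 2-fold lower for 8, against 20%. For the other genes the interval included a fold of 2, the limit of the table. Those nearest that limit by value were GPR50 (2.01) and LDLRAD2 (2.02). ADORA2A, LRP1B and TNFAIP8L2-SCNM1 had fewer than 20 reads over both libraries.

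The log2(value + 1) scale damps differences of weakly expressed genes, and 23 of the 39 genes reached a value of 1 in at least 1 library. Of these 23, 2 were at least 2-fold higher, KCNK9 (2.43) and KCNH5 (2.18), against 16.8% of all rows with such a value. Another 5 were at least 2-fold lower, SLC16A9 (-1.52), PPFIA4 (-1.11), ICAM3 (-1.06) and KCNH2 (-1.02) among them, against 16.8% of all such rows. The split was 5 higher and 1 lower when the libraries were scaled to the total of all rows, which moved the median row by 0.19 upward. Under that scaling 25 of the 39 genes reached a value of 1, and of the 309 rows of the table that did, 91 were at least 2-fold higher and 21 lower, so the whole table shifted the same way. That total rests on called genes only. The median difference of the 23 genes was -0.64, beside -0.61 over all 291 such rows.

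Of the 18 genes that were higher, 8 reached a value of 1 in either library, and of the 21 that were lower, 15 did. In the table as a whole 121 of 201 higher rows and 170 of 224 lower rows reached it. The median value in the library with more was 1.31 for the 39 genes and 1.83 for the other rows, and 16 of the 39 genes stayed under 1 in both libraries, where 31.5% of all rows did. Their median length was 3557 bases, beside 2862 for the other rows.

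**Figure D4:**
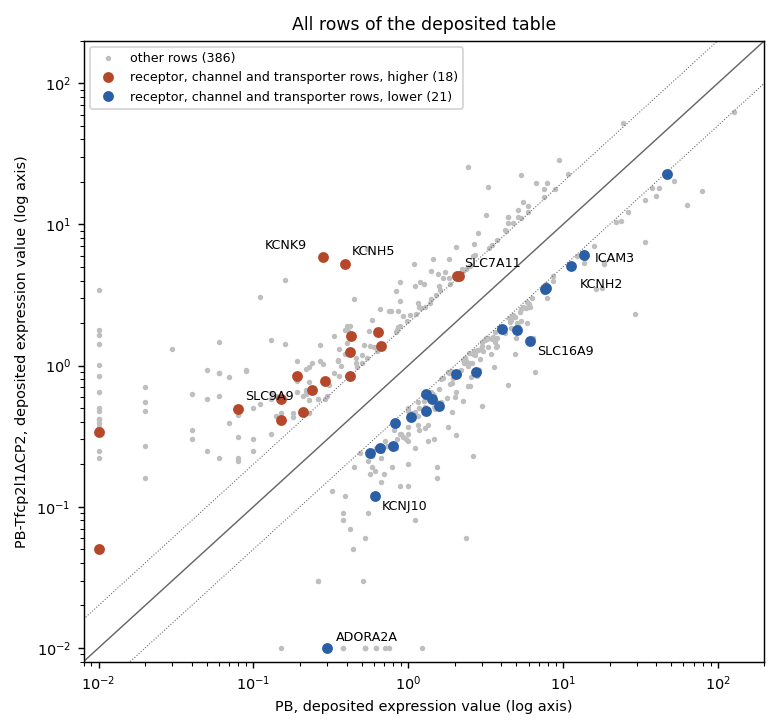
Deposited expression value in the PB library against that in the PB-Tfcp2l1ΔCP2 library (both log axes) for all 425 rows, with the 39 receptor, channel and transporter genes in colour, the line of equality solid and 2-fold dotted. No row lies between the dotted lines, and KCNK9 and KCNH5 lie far above them at control values of 0.28 and 0.39.

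Features that the rule did not use directly were read from the table and from RefSeq. By the table's ontology text 29 of the 39 products (74.4%) are listed as a component of the membrane or plasma membrane, as are 21.9% of the 329 other rows with a symbol. The rule chose genes by words that mostly describe membrane proteins, so this difference was largely fixed by the selection. All 39 genes matched a RefSeq gene by Gene ID, 38 under the same symbol. Promoter windows were found for 23 of the 39 genes, 34 windows in all. The ratio of observed to expected CpG pairs, near 1 in CpG islands and low where CpGs are lost, had a median of 0.34 in the 12 higher genes and 0.46 in the 11 lower genes. The median was 0.66 over 256 rows of the table with a window and 0.56 over all 27305 genes with one. Within each direction values ran from under 0.3 (LDLRAD2 at 0.04, CACNA1I at 0.2) to over 0.8 (KCNH5 at 0.82, PPFIA4 at 0.83), so the directions overlapped.

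Motifs were searched on both strands of these windows. The paired CP2-type site was in 1 of the 34 windows (PRLR), and in 4.04% of all 35116 windows. The hypoxia element core ACGTG was in 5 windows, those of SLC16A9, PPFIA4, ICAM3, CACNA1I and F2RL2, and in 21.4% of all windows. The AP-1 site TGACTCA was in that of F2RL2, and in 4.95% of all windows. The T-box site TCACACCT was in none of the 34 windows and in 0.980% of all. A match describes letters in the window and is not evidence of binding.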

How the data were processed

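Per the labels' protocols RNA was extracted with Trizol and sequenced on a BGISEQ-500. Bowtie 0.12.2 and hg19 stand in the submitters' processing notes with no role, the counter, annotation and test being not given in the sources used here. The single deposited table holds the authors' expression signal for each library, their log2 fold change (equal to the log2 ratio of the 2 signal columns), their p-value and FDR, all per the file headers, and a gene length in bases.

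The authors' p-values were inverted as a 2-sided Audic-Claverie test of whole reads (relative tolerance 5e-06, 12 to 36 reads per unit of value and kilobase, read and value ratios within 25% beside rounding). Exactly 1 pair met these limits in 415 of 425 rows (97.6%), no pair did in 9 and several did in 1. Recovered reads had a median of 23.4 per unit and kilobase over 168 rows with many reads, a figure that the search range limits. The recovery and the intervals were tested on simulated data. Intervals are exact conditional binomial (Clopper-Pearson, 95%). The main scale is log2(value + 1) for values of 1 or more. Families are symbol patterns; annotated totals are protein-coding symbols of RefSeq (GRCh38.p14), used for names and neighbours, while promoter windows carry that build's coordinates. Of the 39 genes 1 is not reported here by name or in the plots by gene, though the counts include it. The other 38 are named, as the rule asked: the 12 largest and 12 smallest log2 ratios, up to 4 per family, and the 5 largest differences in value each way. The genes, families, markers and motifs were chosen with earlier results of these data known. Python 3.11.15, scipy 1.17.1 and pandas 2.3.3 were used.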

Additional observations from a re-analysis of the deposited data

How the results depend on the processing

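No paired analysis was possible because single libraries were compared. Counts at least 2-fold apart on the log2(value + 1) scale (2 higher, 5 lower) became 3 and 9 when 0.5 was added in place of 1, 1 and 0 when 5 was added, 5 and 1 after scaling to the summed value of all rows, 7 and 13 at 1.5-fold, and 2 and 0 at 4-fold. Over all rows the counts were 49 and 49 of 291, then 72 and 87, 8 and 11, 91 and 21 (of 309), 111 and 154, and 7 and 6. The median difference (-0.64) was -0.88, -0.20 and -0.48 under the first 3 of these, -0.36 without the filter and -1.02 at values of 5 or more. By direction alone (18 higher, 21 lower) the counts were 8 and 15 at values of 1 or more and 14 and 20 with at least 50 reads. Chosen after seeing the data, they were 12 and 19 without genes that overlap another coding gene, and 9 and 8 with a counting interval wholly beyond 2-fold. No single gene turned its direction under the settings it could be computed for; 25 passed the filter under scaling. Depth limits the genes with fewest reads: SLC9A9 and TNFRSF11B rest on 7 and 10 control reads.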

Other observations

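Some listed genes of the same families are receptors, channels or pumps that the wording of the rule missed; they were named after their values were seen. ATP8B3, a lipid flippase gene, was at 0.55 in the PB library against 0.21 (2.60-fold lower, 95% counting interval 1.63 to 4.26). The guidance receptor gene ROBO2 was at 0.37 against 0.99 (2.63-fold higher, 2.01 to 3.46). Of the adhesion G protein-coupled receptors, ADGRL4 of the endothelium had 2 reads against 23 (11.2-fold higher, 2.78 to 98.4), and ADGRA2, a WNT co-receptor gene, was at 3.5 against 1.55 (2.26-fold lower, 1.93 to 2.66). ANO4, of the anoctamin channel and scramblase family, was at 0.58 against 0.23 (2.63-fold lower, 1.56 to 4.58).

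Among the 3 coding genes on each side in RefSeq order, 7 of the 39 genes (17.9%) had another listed gene, as had 20.1% of 313 other rows. KCNMB1 and GABRP are neighbours of each other and went opposite ways. SLC16A9 (lower) lies near PHYHIPL, which was at 0.29 against 0.79. TNFRSF11B lies near the matricellular gene NOV (0.07 against 0.39), and SLC7A11 near the protocadherin gene PCDH10 (1.13 against 2.33), all 4 of them higher. GPRC5C lies near CD300A (1.1 against 0.08), both lower.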
